A study of Mus musculus with 24 samples.

Results

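The axon guidance ligands and receptors are the semaphorins, plexins, neuropilins, ephrins, Eph receptors, Slits, Robos, netrins and netrin receptors. Their genes were chosen by symbol, and 69 of the 21833 protein-coding genes in the expression table matched. Poly(A)-enriched, strand-specific RNA-seq of 24 mouse samples was available in 4 groups. AG were normal adrenal glands of mice labelled CRE - (n = 3). AGM were tumor-free adrenal glands from mice labelled MYCN +/-, CRE + (n = 5). TI were neuroblastomas of mice with the IGF2BP1 transgene and CRE +, of which 1 was +/- and 7 were +/+ (n = 8). TIM were neuroblastomas of mice labelled IMP1/MYCN, CRE +, where IMP1 is another name of IGF2BP1 (n = 8). Both transgenes sat behind a loxP-flanked stop cassette at the Rosa26 locus and were switched on by an iCRE recombinase under the Dbh promoter. They were thus on in noradrenergic cells of the sympathoadrenal lineage, and the IGF2BP1 transgene lacked its own 3' regulatory end. AGM mice were killed after a year without tumors, and ages of the other animals were not in the labels. The study reports that homozygous IGF2BP1 mice were culled earlier than that. It gives a still shorter median survival for IGF2BP1/MYCN mice, so age differed between AGM, TI and TIM. Of the tumors, 1 TI and 2 TIM samples were labelled as adrenal and 1 TIM sample as spinal.

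These proteins steer growing axons and migrating neural crest cells by attraction and repulsion. Secreted class 3 semaphorins act through neuropilins with plexins as signalling partners, and membrane semaphorins bind plexins directly. Ephrins sit on the cell surface and signal in both directions with Eph receptors on neighbouring cells. Slits repel through Robo receptors, and netrins attract through Dcc or repel through the Unc5 receptors, which can also trigger cell death when they lack ligand. In the sympathoadrenal lineage, from which neuroblastoma arises, these cues guide crest migration and the wiring of sympathetic neurons. Several members, such as Plxnd1, Ephb4, Robo4 and Nrp1, also work in blood vessels.

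Expression was given as FPKM (fragments per kilobase of gene, scaled to sequencing depth), a scale per gene length on which different genes can be compared. Of the 69 members, 40 reached at least 1 FPKM in at least 3 libraries and were tested, and 29 did not. No member was abundant, and the highest value of any member was 14.5 FPKM. Differences were tested with limma on log2(FPKM + 1) over 10171 genes, with Benjamini-Hochberg adjustment and a false discovery rate (FDR) below 0.05 as threshold. Fold changes are differences of group means on this scale, which understates changes of members with low values, most of all below 1 FPKM. Outside 126 very abundant genes, above 1000 FPKM in some library, libraries held 12334076 to 23683176 recovered reads. Over all genes they held 17434796 to 17893013 in AG and 12468968 to 21353172 in TI. The totals were far higher in AGM (116740738 to 1170004708) and TIM (58530450 to 888626365). This excess in AGM and TIM lay in the 126 genes, none of which was a member.

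Defining markers of the adrenal cortex were compared with the labels. Star, which carries cholesterol into mitochondria for steroid synthesis, was between 178 and 184 FPKM in AG and between 238 and 476 FPKM in AGM. In TI it was at most 1.69 FPKM and in TIM at most 0.51 FPKM. Summed over 10 adrenal cortex markers, AG had 707 to 731 FPKM and AGM 4370 to 5470, while TI had 1.11 to 16.7 and TIM 1.79 to 13.1. The AGM sum included Cyp21a1 and Hsd3b1, whose AGM means were above 1000 FPKM. Summed over 15 endothelial markers, AG had 55.4 to 59.9 FPKM and AGM 57.4 to 79.9, while TI had 8.45 to 94.2 and TIM 6.73 to 39.1. Every tumor was thus below every adrenal gland in cortical markers, as was every tumor other than TI library 4 in endothelial markers. In such bulk samples, fewer cells of a type and less RNA per cell cannot be told apart, and the part of these shifts in the results was not tested. AG was sequenced in run 1, AGM in run 2, TI mostly in run 1 and TIM in runs 2 and 3. Columns could not be matched to runs, so no value within a run could be given, and run and group cannot be told apart when AGM or TIM is compared with AG. In TIM vs TI, 6 of 8 TI samples were in run 1 and all TIM samples in runs 2 and 3. The other TI samples were 1 each in runs 2 and 3. Run and group were thus largely confounded in that contrast, and the part of run was not tested.

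In IGF2BP1 tumors, 27 of the 40 tested members (67.5%) differed from AG, 13 higher and 14 lower, beside 52.4% of all tested genes (24.6% higher and 27.7% lower). In TIM vs AG, 27 members (67.5%) differed, 10 higher and 17 lower, beside 51% of all genes (22.5% higher and 28.5% lower). In AGM vs AG, 10 members (25.0%) differed, 5 in each direction, beside 28.6% (14.6% higher and 14% lower). In TIM vs AGM, 29 members (72.5%) differed, 14 higher and 15 lower, beside 65.3% (31.9% higher and 33.4% lower). In TIM vs TI, 10 members (25.0%) differed, 4 higher and 6 lower, beside 22.9% (10% higher and 12.9% lower). The shares of members called were thus near the background in AGM vs AG and TIM vs TI, and not far above it in TIM vs AGM. Whether they differed from it in any contrast was not tested. Counting only changes of at least 1 on the log2 scale, 11 members passed in TI (21.4% of all genes) and 11 in TIM vs AG (21.2%). By this rule 4 passed in AGM vs AG (9.56%), 9 in TIM vs AGM (24.7%) and 0 in TIM vs TI (2.95%), where limma called 10 without a fold threshold. The 0 applies to log2(FPKM + 1), on which Nrp1, with means of 2.24 FPKM in TI and 0.743 FPKM in TIM, had a value of -0.87. The members' median fold change vs AG was -0.13 for TI, -0.02 for TIM and 0.01 for AGM, and that of TIM was 0.03 vs AGM and -0.05 vs TI. Over all tested genes the medians lay between -0.0049 and 0.0333.

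The split of the AGM calls by direction depended on scaling. When libraries were rescaled without genes above 1000 FPKM, the median of all genes in AGM vs AG shifted by -0.26, and 1 member was higher and 8 were lower. In TIM vs AGM the median shifted by 0.18, and the split became 15 higher and 14 lower. In TIM vs TI 2 members were then higher and 9 lower. Without AG library 1, 2 or 3, the AGM count dropped to 6, 5 or 6. When only TI and TIM set the spread, 2 of the 10 members called in TIM vs TI passed, Nrp1 and Slit2. The TIM vs TI count was 4 to 6 without any 1 of TI libraries 1, 2, 5 and 7 or TIM libraries 2, 4 and 5.

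**Figure D1:**
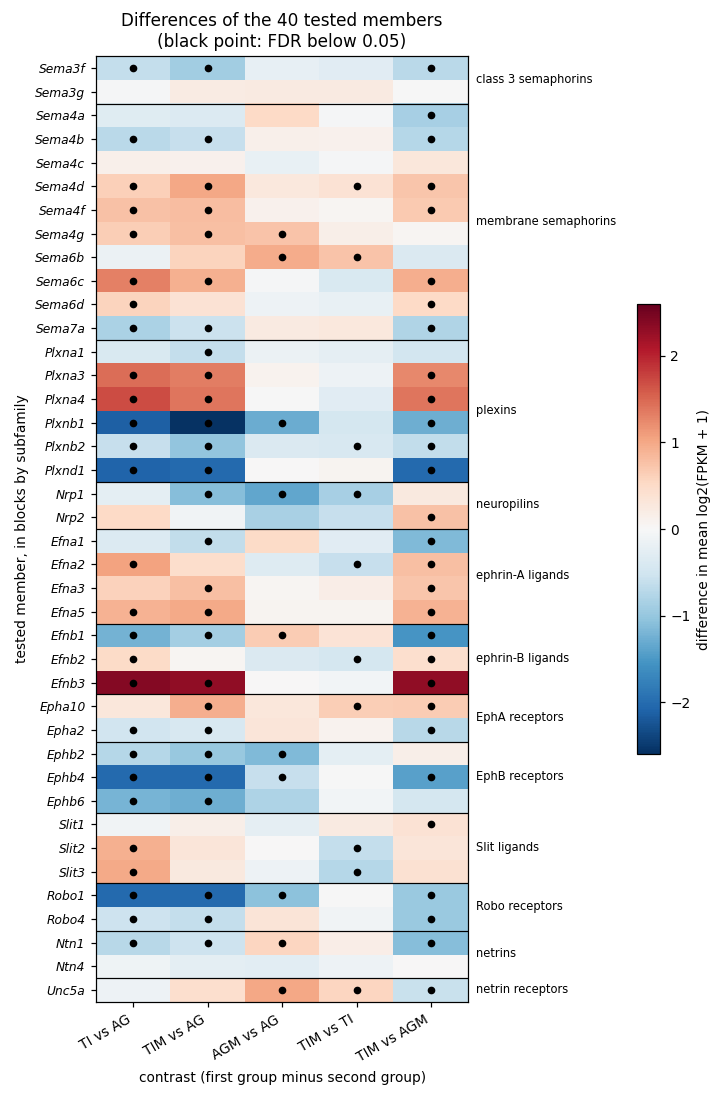
Differences in mean log2(FPKM + 1) of the 40 tested members (vertical axis, in blocks by subfamily) for the 5 contrasts (horizontal axis). Red is higher and blue lower in the first group, and a black point marks an FDR below 0.05 in limma. The deepest blue lies at Robo1, Ephb4, Plxnb1 and Plxnd1 in tumors vs AG and the deepest red at Efnb3, with Plxnb1 at -2.57 in TIM vs AG and Efnb3 at 2.39 in TI vs AG.

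Split by role, 16 receptors and 24 ligands were tested. Of the receptors, 2 rose and 9 fell in TI vs AG, and 3 rose and 11 fell in TIM vs AG. Of the ligands, 11 rose and 5 fell in TI, and 7 rose and 6 fell in TIM. Over all tested genes, 24.6% were higher and 27.7% lower in TI vs AG, and 22.5% and 28.5% in TIM vs AG. The median fold change of the receptors was -0.52 in TI and -0.81 in TIM, that of the ligands 0.32 and 0.23. In AGM vs AG, 1 receptor was higher and 5 were lower, while 4 ligands were higher and none of 24 lower, beside 14.6% higher and 14% lower of all tested genes. In rescaled values the AGM calls of the ligands Efnb1, Ntn1 and Sema6b and of the receptor Unc5a were lost, and of the members called higher only the ligand Sema4g still passed. The AGM call of Sema4g (0.748, adjusted p = 0.0215 in limma) was in turn lost without any AG library or AGM library 4 or 5 (up to 0.0687). It also did not pass when only the 2 groups set the spread (0.0625). Whether receptors and ligands differ was not tested. Of all 103 calls of members, 25 were lost when 1 library was left out, and this is stated for the calls given by name. Besides members named by the fixed rule, members were named after their values were seen where they completed a subfamily or stood out in single libraries.

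Among the plexins, the main semaphorin receptors, 3 of 6 tested members were lower in TI than in AG, 4 in TIM, and 2 were higher in both. Plxnb1 (ENSMUSG00000053646, chr9:108923419-108950427, plus strand, GRCm39), the receptor of Sema4d, was the most abundant member in AG. It was at 14.5, 12.6 and 11.2 FPKM in AG and at 4.83, 4.13, 4.48, 4.86 and 4.57 FPKM in AGM. In TI it ranged from 1.11 over a median of 2.16 to 3.27 FPKM and in TIM from 0.276 over 1.41 to 2.47 FPKM. Every AG library was above every AGM library, and every AGM library was above every tumor. Its log2 fold change was -2.12 (SE 0.23) in TI vs AG, -2.57 (SE 0.23) in TIM vs AG and -1.30 (SE 0.25) in AGM vs AG, with adjusted p of 7.42e-08, 3.32e-09 and 0.000459 in limma.

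Plxnd1 (ENSMUSG00000030123, chr6:115931772-115972286, minus strand), which patterns vessels in response to semaphorin 3E, was at 10.1, 9.35 and 8.89 FPKM in AG. In AGM it was at 10.5, 8.09, 9.74, 8.78 and 10.5 FPKM, which overlapped AG. In TI it ranged from 0.594 over 1.46 to 2.98 FPKM and in TIM from 0.414 over 1.64 to 3.03 FPKM, all below both adrenal groups. Plxnd1 changed by -2.08 (SE 0.27) in TI and by -2.02 (SE 0.27) in TIM vs AG on the log2 scale, and the AGM value was 0.00937 (SE 0.29, 0.996 adjusted by limma). The highest TI value was in library 4, which also had the highest summed endothelial markers of TI. Plxnb2, a receptor of class 4 semaphorins, was at 10.5, 9.38 and 8.94 FPKM in AG. It ranged from 4.64 to 7.88 FPKM in TI and from 2.39 to 7.23 FPKM in TIM, below every AG library. Its log2 fold change was -0.61 in TI, -1.02 in TIM and -0.37 (not called) in AGM. Plxnb2 was also lower in TIM than in TI (-0.41, adjusted p = 0.0345 in limma), but this call was lost without any 1 of TI libraries 1, 2, 5 and 7 or TIM libraries 2, 5 and 8, at adjusted p of 0.0521 to 0.0756. Plxna1 was lower in TIM than in AG (-0.63, adjusted p = 0.0433 in limma), a call lost without any AG library or any 1 of TIM libraries 2, 3, 6 and 8 (up to 0.127).

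Both other tested plexins rose in tumors. Plxna4 (ENSMUSG00000029765, chr6:32121203-32565193, minus strand), a partner of neuropilins in sensory and sympathetic neurons, was at 0.157, 0.155 and 0.147 FPKM in AG. In AGM it was at 0.115, 0.184, 0.164, 0.174 and 0.0949 FPKM. It ranged from 0.981 over 3.11 to 6.47 FPKM in TI and from 0.891 over 2.02 to 3.46 FPKM in TIM. No tumor overlapped an adrenal gland. Plxna4 rose by 1.69 (SE 0.29) in TI and by 1.40 (SE 0.29) in TIM vs AG on the log2 scale, with adjusted p of 3.4e-05 and 0.000297 in limma. Plxna3 (ENSMUSG00000031398, chrX:73372672-73388295, plus strand), which pairs with Nrp2, was at 0.532, 0.448 and 0.464 FPKM in AG and at 0.624, 0.654, 0.604, 0.503 and 0.491 FPKM in AGM. It ranged from 1.26 over 3.51 to 5.69 FPKM in TI and from 0.756 over 3.08 to 4.16 FPKM in TIM, again above all adrenal glands. It rose by 1.46 (SE 0.27) in TI and by 1.33 (SE 0.27) in TIM on the log2 scale, at adjusted p of 8.07e-05 and 0.000237 in limma.

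Both neuropilins, co-receptors of class 3 semaphorins and of vascular endothelial growth factor, were tested. Nrp1 (ENSMUSG00000025810, chr8:129085085-129231082, plus strand) was at 2.69, 2.61 and 2.77 FPKM in AG and at 0.392, 0.526, 0.388, 0.444 and 0.436 FPKM in AGM. It ranged from 0.65 over 2.18 to 3.64 FPKM in TI and from 0.247 over 0.729 to 1.23 FPKM in TIM. AGM and most TIM libraries were thus low and AG and most TI libraries high, with only TI library 6 inside the TIM range. AG and most TI samples were in run 1, and AGM and TIM in runs 2 and 3. The other TI samples were 1 each in runs 2 and 3. Run and group cannot be told apart in AGM or TIM vs AG, and in TIM vs TI the part of run was not tested. Nrp1 fell by 1.36 (SE 0.23) in AGM and by 1.11 (SE 0.215) in TIM vs AG, at adjusted p of 0.000111 and 0.000153 in limma. In TI vs AG the log2 fold change was -0.245 (adjusted p = 0.361 in limma). The direct difference of TIM vs TI was -0.87 (SE 0.16, adjusted p = 0.000685 in limma), the largest of any member in that contrast. Nrp2 was at 2, 1.99 and 2.21 FPKM in AG, from 0.64 to 0.834 FPKM in AGM, from 0.46 over 3.9 to 6.09 FPKM in TI and from 0.909 over 1.65 to 3.46 FPKM in TIM. Only its difference of TIM vs AGM passed (0.77, adjusted p = 0.0216 in limma).

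Of the secreted class 3 semaphorins, 2 of 7 were tested. Sema3f, which repels Nrp2-bearing sympathetic axons, was at 1.95, 1.79 and 1.81 FPKM in AG and at 1.37, 1.38, 1.39, 1.56 and 1.6 FPKM in AGM. It ranged from 0.371 over 0.551 to 3.48 FPKM in TI and from 0.0972 over 0.52 to 1.24 FPKM in TIM. TI library 4 was the only tumor above AG. Sema3f fell in TIM vs AG (-0.91, SE 0.25, adjusted p = 0.00418 in limma). In TI the value was -0.62 (adjusted p = 0.0427 in limma), a call lost without any AG library (0.0926 to 0.115) or any 1 of TI libraries 1, 2, 3, 5, 6 and 8 (0.0511 to 0.0706). Sema3g did not pass in any contrast. Sema3a, the classical collapsing signal for Nrp1-bearing growth cones, was near 0 throughout, with at most 0.00476 FPKM in AG, 0.00236 in AGM, 0.0475 in TI and 0.0708 in TIM.

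Of the 13 membrane semaphorins, 10 were tested, and 5 rose and 2 fell in TI vs AG. In TIM 4 were higher and 2 lower. Sema6c (ENSMUSG00000038777, chr3:95067726-95084627, plus strand), a transmembrane semaphorin of the nervous system, was at 0.339, 0.336 and 0.337 FPKM in AG and from 0.262 to 0.338 FPKM in AGM. It ranged from 1.06 over 2.52 to 4.11 FPKM in TI and from 0.851 over 1.65 to 2.29 FPKM in TIM, above all adrenal glands. Sema6c rose by 1.31 (SE 0.22) in TI and by 0.918 (SE 0.22) in TIM on the log2 scale, at adjusted p of 2.55e-05 and 0.00116 in limma. Sema4d, the ligand of Plxnb1, was at 0.439, 0.364 and 0.328 FPKM in AG and from 0.641 to 0.736 FPKM in AGM. It ranged from 0.544 over 1.16 to 1.6 FPKM in TI and from 0.76 over 1.84 to 2.63 FPKM in TIM, above every AG library. It rose by 0.62 in TI and by 1.01 (SE 0.17, adjusted p = 4e-05 in limma) in TIM. Its rise of 0.38 in TIM vs TI (adjusted p = 0.034 in limma) was lost without any 1 of TI libraries 2, 3 and 7 or TIM libraries 1, 2, 4 and 5, at adjusted p of 0.0519 to 0.0763. Sema4f also rose in both tumor groups (0.76 in TI and 0.80 in TIM), as did Sema4g (0.64 and 0.79), while Sema4b (-0.70 and -0.60) and Sema7a (-0.83 and -0.55) fell. The call of Sema4g in TI was lost without any AG library, and that of Sema7a in TIM without any AG library or TIM library 1, 4 or 8 (up to 0.139). Sema6b was higher in TIM than in TI (0.75, adjusted p = 0.0271 in limma), lost without TIM library 2 (0.0573), and its highest value was 5.23 FPKM in TIM library 5. It was also higher in AGM than in AG (0.96, adjusted p = 0.0416 in limma), a call lost in rescaled values (0.692, adjusted p = 0.0826) and without any 1 library other than AGM library 2.

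The promoters of Robo1 and Plxnb1, which fell in both tumor groups, and of Plxna3 and Sema6c, which rose in both, are shown as examples of members in which no tumor overlapped an adrenal gland. Each line gives the 250 bases before a RefSeq transcription start on the plus strand of GRCm38.p6, an earlier build than that of the expression table. Capitals mark GGGCGG or its reverse complement CCGCCC, the GC box of many promoters without a TATA element.
Robo1, chr16:72662899-72663148: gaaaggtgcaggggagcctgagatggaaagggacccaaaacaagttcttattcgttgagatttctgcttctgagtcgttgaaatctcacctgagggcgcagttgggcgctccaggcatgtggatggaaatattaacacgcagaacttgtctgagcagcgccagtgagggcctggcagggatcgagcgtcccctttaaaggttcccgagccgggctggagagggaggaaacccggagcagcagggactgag
Plxnb1, chr9:109095186-109095435: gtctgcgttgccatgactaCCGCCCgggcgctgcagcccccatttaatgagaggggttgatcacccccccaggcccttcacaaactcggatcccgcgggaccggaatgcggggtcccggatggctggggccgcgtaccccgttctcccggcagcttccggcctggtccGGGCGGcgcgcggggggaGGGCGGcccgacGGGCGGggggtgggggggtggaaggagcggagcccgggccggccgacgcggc
Plxna3, chrX:74328816-74329065: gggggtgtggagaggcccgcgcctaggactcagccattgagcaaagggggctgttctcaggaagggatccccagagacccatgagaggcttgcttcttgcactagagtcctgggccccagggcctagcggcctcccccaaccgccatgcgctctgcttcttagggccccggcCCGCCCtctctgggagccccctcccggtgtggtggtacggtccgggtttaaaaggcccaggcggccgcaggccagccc
Sema6c, chr3:95160170-95160419: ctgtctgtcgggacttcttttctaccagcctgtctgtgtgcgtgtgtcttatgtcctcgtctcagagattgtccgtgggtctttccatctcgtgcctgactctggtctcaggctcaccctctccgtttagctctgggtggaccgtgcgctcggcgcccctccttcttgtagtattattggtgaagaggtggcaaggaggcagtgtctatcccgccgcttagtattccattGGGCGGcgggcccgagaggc
The Plxnb1 window held 4 such matches, Plxna3 and Sema6c held 1 each and Robo1 held 0. A second Sema6c window, chr3:95164089-95164338, is not shown and held 0. Of the 69 members, 59 had a window, 75 windows in all. Over the same 250 bases before the start, GGGCGG on either strand was in 70.7% of member windows and in 32.7% of all 32851 windows. CACGTG, the E-box bound by the MYC family and its own reverse complement, was in 5.33% of member windows and in 6.02% of all. GATAA or TTATC, the core bound by GATA factors, was in 13.3% and in 22.6%. No motif contains another. The 4 windows printed above held neither CACGTG nor GATAA.

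**Figure D2:**
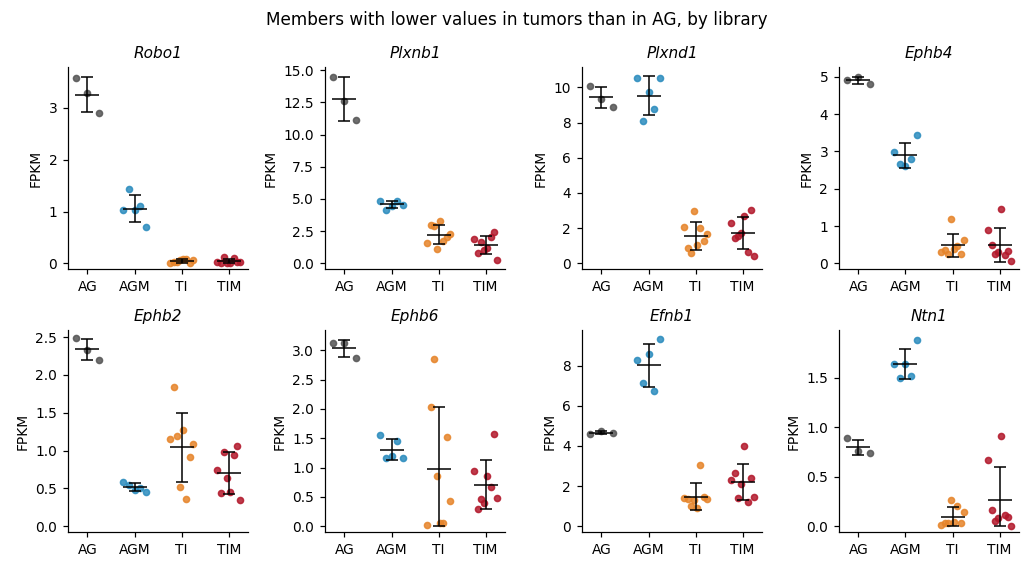
FPKM (vertical axis) of 8 members by library in AG, AGM, TI and TIM (horizontal axis). Points are libraries, the black bar is the mean and whiskers are the SD, with the lower whisker ended at 0. Robo1 lies at 2.9 to 3.58 FPKM in AG and at most 0.126 FPKM in tumors, and Efnb1 and Ntn1 lie higher in AGM than in AG.

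Among the Robo receptors, both tested members were lower in TI and TIM than in AG. Robo1 (ENSMUSG00000022883, chr16:72105194-72844378, plus strand), an axonal receptor of Slits, was at 3.58, 3.29 and 2.9 FPKM in AG. In AGM it was at 1.03, 1.43, 1.02, 1.1 and 0.7 FPKM. In TI it ranged from 0.0134 over 0.0446 to 0.089 FPKM and in TIM from 0.00399 over 0.0208 to 0.126 FPKM. Groups were in the order AG, AGM, tumors without overlap, and TI and TIM overlapped. Robo1 changed by -2.02 (SE 0.081) in TI, -2.03 (SE 0.081) in TIM and -1.06 (SE 0.087) in AGM vs AG, at adjusted p of 1.48e-15, 1.24e-15 and 1.72e-09 in limma. The TIM vs TI difference was -0.01 (SE 0.06, 0.923 adjusted by limma). Robo4, the endothelial member, spanned 1.17 to 1.21 FPKM in AG and 1.47 to 2.22 in AGM, against 0.136 to 1.94 in TI and 0.102 to 0.804 in TIM, with its highest TI value in library 4. Robo4 fell by 0.629 in TIM vs AG. Its TI value of -0.535 (adjusted p = 0.0304 in limma) was lost without any AG library or TI library 3 or 5 (up to 0.0825). Robo2 was low, spanning 0.0112 to 0.0216 FPKM in AG and 0.108 to 0.15 in AGM, while TI spanned 0.00709 to 0.214 and TIM 0.0459 to 0.457 FPKM.

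Among the Slit ligands, 2 of 3 rose in TI vs AG and none in TIM vs AG. Slit2 (ENSMUSG00000031558, chr5:48140480-48465075, plus strand), a repellent of crest cells and axons, was at 0.131, 0.12 and 0.12 FPKM in AG and at 0.122, 0.179, 0.155, 0.138 and 0.0587 FPKM in AGM. It ranged from 0.16 over 1.23 to 2.74 FPKM in TI and from 0.115 over 0.31 to 1.03 FPKM in TIM. TI library 6 was the only TI library below 0.5 FPKM. Slit2 rose by 0.93 (SE 0.22, adjusted p = 0.00112 in limma) in TI vs AG. In TIM vs AG the value was 0.31 (0.243 adjusted by limma), and TIM was lower than TI by -0.62 (SE 0.16, adjusted p = 0.00949 in limma). Slit3 followed, with 1.34 to 1.55 FPKM in AG, 1.96 over 3.86 to 9.68 FPKM in TI and 1.17 over 1.67 to 3.62 FPKM in TIM. It rose by 0.99 in TI (adjusted p = 0.00504 in limma) and was -0.74 in TIM vs TI (adjusted p = 0.0135 in limma). The latter call was lost without TI libraries 4 and 6 and TIM libraries 1 and 5 (-0.478, adjusted p = 0.0835). Slit1 was called only in TIM vs AGM (0.38, adjusted p = 0.0397 in limma), and this was lost without any 1 of AGM libraries 3, 4 and 5 or TIM libraries 1, 2, 5, 6 and 7 (up to 0.0914).

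All 3 tested EphB receptors were lower in both tumor groups than in AG. Ephb4 (ENSMUSG00000029710, chr5:137348274-137376931, plus strand), the venous receptor of Efnb2, was at 4.93, 4.99 and 4.8 FPKM in AG and at 2.99, 2.66, 2.6, 2.79 and 3.43 FPKM in AGM. It ranged from 0.26 over 0.376 to 1.19 FPKM in TI and from 0.0532 over 0.319 to 1.46 FPKM in TIM, with no overlap between AG, AGM and tumors. Ephb4 changed by -2.02 (SE 0.19) in TI and by -2.03 (SE 0.19) in TIM on the log2 scale, at adjusted p of 5.99e-09 and 5.47e-09 in limma. Its highest values were in TI library 4 and TIM library 5, the libraries with the highest summed endothelial markers in their groups, at 94.2 and 39.1 FPKM. Without these libraries, TI library 6 and TIM library 1, its fold changes were -2.12 and -2.22. The smaller drop in AGM, -0.605 (adjusted p = 0.0298 in limma), was lost without AG library 1, 2 or 3 (0.0737 to 0.0863) or AGM library 3 or 4 (0.0506 to 0.0553), and became -0.957 in rescaled values.

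Ephb2, which acts in axon crossing and synapse formation, was at 2.48, 2.33 and 2.2 FPKM in AG and at 0.588, 0.542, 0.475, 0.512 and 0.453 FPKM in AGM. It ranged from 0.355 over 1.12 to 1.84 FPKM in TI and from 0.346 over 0.691 to 1.07 FPKM in TIM, below every AG library. Its log2 fold change vs AG was -1.14 (SE 0.18) in AGM, -0.742 (SE 0.16) in TI and -0.987 (SE 0.16) in TIM, at adjusted p of 3.53e-05, 0.00059 and 2.54e-05 in limma. Ephb6, which lacks kinase activity and is linked with favorable neuroblastoma, was at 3.12, 3.12 and 2.87 FPKM in AG and at 1.56, 1.16, 1.2, 1.45 and 1.17 FPKM in AGM. In TI it spread from 0.0262 over 0.644 to 2.85 FPKM, and in TIM from 0.292 over 0.58 to 1.57 FPKM. TI libraries 1, 5 and 6 were at 0.0262, 0.0476 and 0.0629 FPKM, while the other 5 were at or above 0.436 FPKM. Its changes were -1.20 (SE 0.31) in TI and -1.27 (SE 0.31) in TIM, at adjusted p of 0.00266 and 0.0017 in limma. The AGM value of -0.81 was not called (adjusted p = 0.0768 in limma).

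Only 2 of 9 EphA receptors were tested. Epha2, a receptor of epithelia, fell in TI (-0.50) and TIM (-0.41), the latter lost without any AG library (up to 0.0773). Epha10, another receptor without kinase activity, rose in TIM vs AG (0.94, adjusted p = 0.0109 in limma), but did not pass in limma-voom on recovered reads (0.085). It was also higher in TIM than in TI (0.64, adjusted p = 0.0387 in limma), a call lost without any 1 of TI libraries 1, 2, 3, 5 and 7 or TIM libraries 2, 4, 5 and 7 (up to 0.0839). Epha4, a receptor of both ephrin classes, stayed at or below 0.241 FPKM in all 24 libraries.

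**Figure D3:**
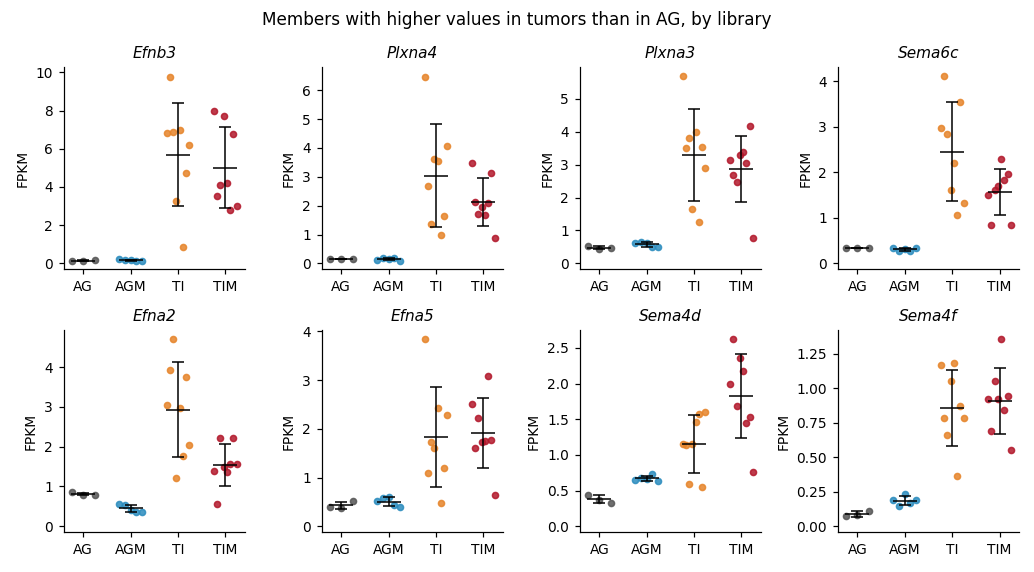
FPKM (vertical axis) of 8 members by library in AG, AGM, TI and TIM (horizontal axis). Points are libraries, the black bar is the mean and whiskers are the SD, with the lower whisker ended at 0. Efnb3 lies at 0.116 to 0.205 FPKM in all adrenal glands and at 0.843 to 9.77 FPKM in tumors, with TI library 6 lowest.

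The ephrin-B ligands moved in both directions. Efnb3 (ENSMUSG00000003934, chr11:69444918-69451323, minus strand), a neuronal ephrin of the midline, was at 0.126, 0.143 and 0.181 FPKM in AG and at 0.205, 0.164, 0.184, 0.145 and 0.116 FPKM in AGM. It ranged from 0.843 over 6.51 to 9.77 FPKM in TI and from 2.81 over 4.16 to 7.99 FPKM in TIM, so that every tumor was above every adrenal gland. Efnb3 rose by 2.39 (SE 0.36) in TI and by 2.31 (SE 0.36) in TIM, at adjusted p of 6.59e-06 and 1.04e-05 in limma, the largest rise of any tested member. In AGM the difference was 0.0161 (SE 0.39, 0.992 adjusted by limma). Efnb1 (ENSMUSG00000031217, chrX:98179680-98205454, plus strand), which is required in crest cells of face and skull, was at 4.58, 4.76 and 4.67 FPKM in AG and at 8.3, 7.16, 8.56, 6.72 and 9.33 FPKM in AGM. It ranged from 0.899 over 1.34 to 3.04 FPKM in TI and from 1.2 over 2.2 to 4 FPKM in TIM. Every AGM library was above AG, and every tumor was below AG. Efnb1 fell by 1.23 (SE 0.21) in TI and by 0.877 (SE 0.21) in TIM. The rise in AGM, 0.661 (adjusted p = 0.0293 in limma), was 0.253 in rescaled values (adjusted p = 0.37) and was lost without any AG library (0.0749 to 0.0868) or AGM library 1, 3 or 5 (0.0507 to 0.066). Efnb2, the arterial ligand of Ephb4, was higher in TI than in AG (0.50, adjusted p = 0.0452 in limma), a call lost without any AG library or any 1 of TI libraries 1, 2, 4, 5 and 8 (up to 0.127). It was lower in TIM than in TI (-0.46, adjusted p = 0.0342 in limma), also lost without any 1 of these 5 TI libraries or of TIM libraries 2, 4, 5 and 8 (up to 0.0758).

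Of the ephrin-A ligands, 2 of 4 tested rose in TI vs AG and none fell, and in TIM 2 were higher and 1 lower. Efna2 was at 0.853, 0.793 and 0.796 FPKM in AG and from 0.364 to 0.555 FPKM in AGM. It ranged from 1.22 over 3.01 to 4.71 FPKM in TI and from 0.562 over 1.52 to 2.22 FPKM in TIM. Every TI library was above AG, whereas 1 TIM library was below it. Efna2 rose by 1.05 (SE 0.22, adjusted p = 0.00037 in limma) in TI. In TIM vs AG it was 0.46 (0.088 adjusted by limma), and in TIM vs TI -0.59 (adjusted p = 0.0126 in limma), which did not pass when only these 2 groups set the spread (0.0555). Efna5 rose in both tumor groups (0.90 and 0.98), and Efna3 passed only in the contrasts of TIM with AG (0.78, lost without any AG library at up to 0.0568) and AGM (0.73). Efna1, an ephrin of epithelium and endothelium, spanned 1.63 to 1.66 FPKM in AG and 1.92 to 4.8 in AGM, against 0.354 to 2.32 in TI and 0.285 to 1.62 in TIM. It was lower in TIM than in AGM (-1.14, SE 0.21, adjusted p = 6.78e-05 in limma). Its value in TIM vs AG (-0.64, adjusted p = 0.0366 in limma) was lost without AG library 1, 2 or 3 or TIM library 2, 4 or 6, at adjusted p of 0.0513 to 0.0937.

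Netrins and their receptors were low. Ntn1 (ENSMUSG00000020902, chr11:68100190-68291662, minus strand), the founding attractant, was at 0.886, 0.76 and 0.741 FPKM in AG and at 1.64, 1.5, 1.64, 1.52 and 1.88 FPKM in AGM. It ranged from 0.0105 over 0.0406 to 0.261 FPKM in TI and from 0 over 0.103 to 0.914 FPKM in TIM. AGM was thus highest and tumors lowest, with TIM library 5 alone above AG. Ntn1 fell by 0.717 (SE 0.15, adjusted p = 0.000298 in limma) in TI and by 0.547 (SE 0.15, adjusted p = 0.00363) in TIM. The rise in AGM of 0.553 (adjusted p = 0.0124 in limma) was 0.289 in rescaled values (adjusted p = 0.123) and did not pass with a pseudocount of 0.1 (0.207) or in limma-voom (0.102). Unc5a, a repulsive netrin receptor, was at 0.979, 0.8 and 1.01 FPKM in AG and at 2.96, 2.68, 2.82, 2.67 and 3.15 FPKM in AGM. It ranged from 0.307 over 0.555 to 3.43 FPKM in TI and from 0.789 over 1.39 to 3.09 FPKM in TIM, and TI library 6 was the only tumor above all AGM libraries. It rose by 0.998 (SE 0.3, adjusted p = 0.0155 in limma) in AGM vs AG. This was 0.686 in rescaled values (adjusted p = 0.07) and lost without AG library 2 (0.0617). The TIM vs TI value of 0.57 (adjusted p = 0.0491 in limma) was lost without any 1 of 12 libraries, all TI except 6 and all TIM except 3, 6 and 8, at adjusted p of 0.0553 to 0.104. The TIM vs AGM value of -0.57 (adjusted p = 0.0372) was lost without any 1 of 10 libraries (0.0504 to 0.0722), namely each AGM library and TIM libraries 1, 3, 4, 6 and 8, and in rescaled values (-0.343, adjusted p = 0.201).

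**Figure D4:**
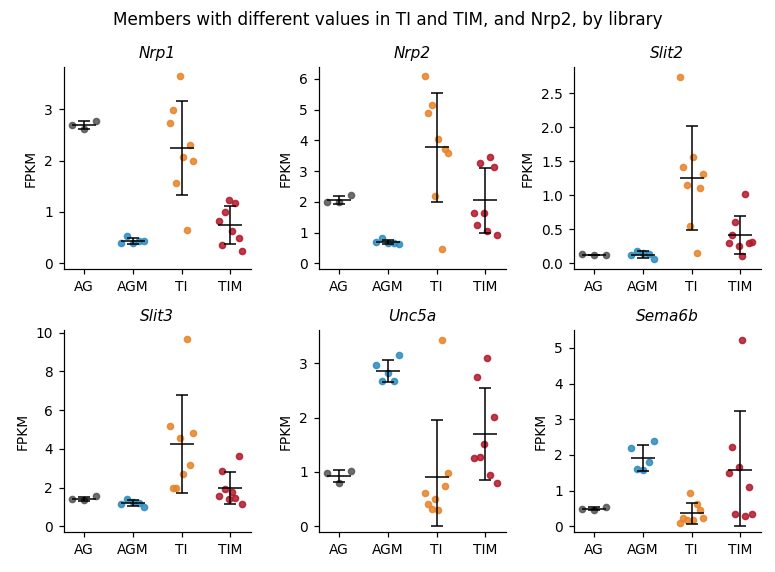
FPKM (vertical axis) of 6 members by library in AG, AGM, TI and TIM (horizontal axis). Points are libraries, the black bar is the mean and whiskers are the SD, with the lower whisker ended at 0. Nrp1, Slit2 and Slit3 lie lower in TIM than in TI, and Unc5a and Sema6b lie higher, with TI library 6 at 3.43 FPKM for Unc5a. Nrp2 did not pass in TIM vs TI.

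The 29 members below the filter were compared by two-sided exact permutation of mean FPKM, adjusted over the 8691 genes below the filter that were not at 0 throughout. In TI vs AG, 5 passed, all lower, beside 20.8% of these genes. In TIM vs AG, 3 passed, all lower, beside 19.5%. In TIM vs TI, 2 passed, both higher, beside 2.95%, and in TIM vs AGM, 5 were higher and 2 lower, beside 26.9%. In AGM vs AG, with 56 splits and a smallest p of 0.0179, none of these genes passed after adjustment, and 11 members and 2253 genes had an unadjusted p under 0.05. The members lower in TI vs AG were Robo3, Sema3b, Sema3c, Sema3d and Sema5b, and in TIM vs AG Robo3, Sema3d and Sema5b. Each of these contrasts had 165 splits and a smallest p of 0.00606. Members above AG in every library of a tumor group did not pass, such as Dcc in TI (exact permutation p = 0.206), Epha7 in TI (0.0242) and Epha8 in TIM (0.0303). A split that moves the highest tumor values into the smaller group can exceed such a rise. That all passing members were lower is thus no result about direction. Higher in TIM vs AGM were Dcc, Epha5, Epha7, Epha8 and Unc5d, and lower were Robo3 and Sema5b. limma without the filter gave other calls for these members. In TI vs AG it called 3 higher (Dcc, Epha7 and Plxnc1) and 3 lower (Robo3, Sema3d and Sema5b), and in TIM vs AG 4 higher (Epha5, Epha8, Robo2 and Unc5d) and the same 3 lower. In AGM vs AG it called Robo3 and Sema3d lower, at -0.0327 and -0.211 on the log2 scale.

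Epha8, a neuronal Eph receptor, was at 0.0316, 0.0121 and 0.038 FPKM in AG and from 0.0529 to 0.13 FPKM in AGM. It ranged from 0.00568 over 0.109 to 0.216 FPKM in TI and from 0.21 over 0.743 to 1.69 FPKM in TIM. Of the TI libraries only library 1, at 0.216 FPKM, was above the lowest TIM library. TIM was higher than TI at an exact permutation p of 0.000311 (0.0278 adjusted) and higher than AGM at 0.00466 (0.0232 adjusted). Unc5d, a netrin receptor on chromosome 8, was at 1 recovered read per AG library and ranged from 0 to 0.0586 FPKM in TI. In TIM, 7 of 8 libraries were between 0.21 and 0.528 FPKM and 1 was at 0. The exact permutation p of TIM vs TI was 0.0014 (0.0475 adjusted).

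Dcc, the attractive netrin receptor and a dependence receptor, was at 0.0509, 0.0519 and 0.0458 FPKM in AG and from 0.0227 to 0.062 FPKM in AGM. It ranged from 0.108 over 0.296 to 1.61 FPKM in TI and from 0.0664 over 0.152 to 0.385 FPKM in TIM. All tumors lay above all adrenal glands. TIM exceeded AGM (exact permutation p = 0.00932, 0.037 adjusted), while TI vs AG did not pass by this test (exact permutation p = 0.206), with 1 TI library far above the rest. Unc5b and Unc5c did not pass in any contrast. Unc5b was between 0.126 and 1.14 FPKM in all 24 libraries, and Unc5c was between 0.0949 and 0.205 FPKM in AGM, at most 0.0346 in AG, at most 0.221 in TI and at most 0.254 in TIM. Efna4 spanned 0.56 to 0.641 FPKM in AG and 0.132 to 0.209 in AGM, against 0.0949 to 1.32 in TI and 0.107 to 0.57 in TIM. Sema5a (0.129 ± 0.00605 in AG, 0.284 ± 0.0792 in AGM, 0.532 ± 0.467 in TI and 0.407 ± 0.311 in TIM, mean ± SD in FPKM) and Ntn3 (0.308 ± 0.0273, 0.454 ± 0.087, 0.601 ± 0.233 and 0.574 ± 0.281) did not pass either.

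Some low members stood out in single TIM libraries. Epha3 (chr16:63363897-63684538) had 1 recovered read in each AG library, at most 2 in TI, and 121, 443, 283, 501 and 124 in AGM. In TIM it had 4739 reads in library 3, 7252 in library 6 and 204 in library 2, and at most 1 in the others, that is 5.76, 9.27 and 0.251 FPKM. Epha6, on the same chromosome, had 353 and 736 reads in TIM libraries 3 and 6 and at most 2 in any other library. Robo2, also there, was highest in these 2 TIM libraries, at 0.457 and 0.423 FPKM. None of the 3 passed in TIM vs TI, with an exact permutation p of 0.194 for Epha3. Along with Ntn5, Epha3 and Epha6 had at most 10 reads in every AG and TI library. AG and most TI samples were in run 1, which held no AGM or TIM sample. The other TI samples were 1 each in runs 2 and 3. For these members, run and group cannot be told apart in AGM or TIM vs AG. Between TI and AGM or TIM, the part of run was not tested. Sema3b, a secreted semaphorin, was at 2.13 and 3.62 FPKM in TIM libraries 1 and 5 and at most 0.358 in the other 6. Plxnb3, a glial plexin, had 569 and 689 reads in the same libraries and at most 48 in the other TIM libraries. In these 2 libraries the summed FPKM of 10 Schwann and glial markers was 30.2 and 50.8, against 0.931 to 10.5 in the other 6, and Sox10 was at 8.24 and 15.3 FPKM, against at most 1.19. The part of these markers in the values was not tested.

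**Figure D5:**
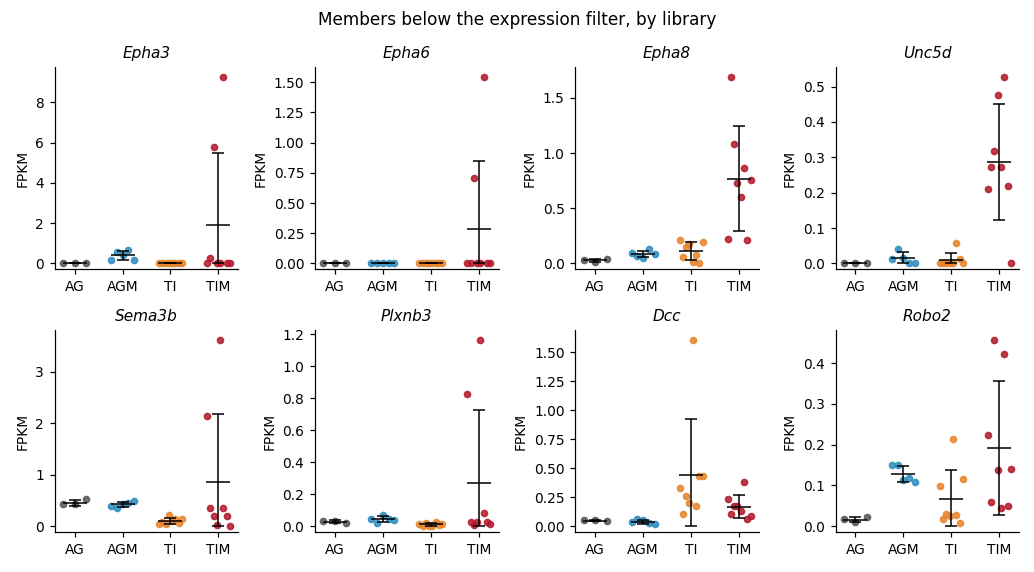
FPKM (vertical axis) of 8 members below the filter by library in AG, AGM, TI and TIM (horizontal axis). Points are libraries, the black bar is the mean and whiskers are the SD, with the lower whisker ended at 0. Epha3 and Epha6 rise in the same 2 TIM libraries and Sema3b and Plxnb3 in 2 other ones, whereas Epha8 and Unc5d are raised in most TIM libraries.

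Other genes of the pathway changed in both directions. Of 29 co-receptors and other guidance molecules, 17 were tested, of which 7 rose and 5 fell in TI vs AG, and 8 higher and 5 lower in TIM. Ncam1, the neural cell adhesion molecule, rose from a mean of 0.663 FPKM in AG to 12.9 in TI and 9.78 in TIM. L1cam, a partner of Nrp1 in the Sema3a receptor, rose from 0.419 to 7.11 and 6.16 FPKM. Sdc3, a heparan sulfate carrier, fell from 36.2 to 9.13 FPKM in TI. In AGM none was higher and 5 were lower, led by Ryk at -0.98, and in TIM vs TI 2 were higher and 2 lower. Of 59 intracellular effectors, 46 were tested, of which 18 were higher and 14 lower in TI, and 20 higher and 14 lower in TIM. Crmp1, a collapsin response mediator, rose from 0.451 FPKM in AG to 18.7 in TI and 18.2 in TIM, and Dpysl3 of the same family from 1.05 to 19.5 and 14.1 FPKM. Dock1, a Rac activator downstream of Dcc, fell from 6.1 FPKM in AG to 0.141 in TIM and 2.25 in AGM. In AGM 3 effectors were higher and 12 lower, which became 2 and 20 in rescaled values. In TIM vs TI 2 were higher and 4 lower, which became 3 and 9 in rescaled values. The median fold changes of these lists were 0.14 and 0.07 in TI and 0.47 and 0.18 in TIM, against about 0 for all genes. Beside these counts, 52.4% of all tested genes were called in TI vs AG and 51% in TIM vs AG. The shares were 28.6% in AGM vs AG and 22.9% in TIM vs TI.

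Of the marker lists, all 12 tested endothelial genes were lower in TIM than in AGM, 11 were lower in TIM than in AG and 7 in TI, with Tek at -1.89 in TI. Of 10 cortical markers, 9 were lower in both tumor groups and 8 were higher in AGM than in AG. Of 14 sympathoadrenal markers, 10 were higher in both tumor groups and 4 in AGM. Schwann and glial genes showed 2 lower of 7 in TI, 1 lower in TIM and AGM, and 2 higher in TIM vs TI (Foxd3 and Fabp7). Macrophage genes showed 1 lower of 7 in TI and 2 in TIM, and fibroblast and mural genes 3 higher and 3 lower of 9 in both.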

How the data were processed

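Poly(A) RNA of 24 mouse samples was sequenced. The submitters' processing notes list cutadapt 2.8, HISAT2 2.1.0, SAMtools 1.10, featureCounts 2.0.0 and edgeR 3.40, with the build mm39 (GRCm39). The authors corrected read counts for batch with ComBat-seq, scaled libraries by TMM and deposited FPKM. A further 9 columns held the authors' log2 fold changes, p-values and FDR of AGM, TI and TIM against AG and were not used. Multiplied by gene length, all deposited FPKM were whole multiples of 1 step (100% within 0.01), which gave recovered reads. These are corrected values, and read numbers cover counting error only.

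Columns were assigned to groups by name, and library numbers follow column order and only name a library. No 2 columns were identical. For Western blots and genotyping of the transgenic animals, the study's methods name single mice as the biological replicates. The study reports more tumors than animals in IGF2BP1/MYCN mice. Whether each TIM library came from a different mouse was not established, and the tests treated libraries as independent. limma 3.58.1 in R 4.3.3 (lmFit, eBayes with trend) was run on log2(FPKM + 1) of genes at or above 1 FPKM in 3 or more libraries, with 1 shared spread. Below that filter, exact permutation p-values were adjusted over all such genes instead of over the members, as first planned. The code was checked on simulated data. Named were members called with a log2 fold change of 1 or more in either direction in any contrast, 15 preset members, and members below the filter with a group mean of at least 0.5 FPKM. Of other lists, the genes with the largest changes were named. Members and lists were chosen with earlier results of these data known. Positions were from the GENCODE annotation of GRCm39, in which all 69 members were found, and promoters from RefSeq on GRCm38.p6. Alternatives varied the pseudocount, filter, spread, scaling, library weights, fold threshold and libraries, and limma-voom was run on recovered reads.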

Additional observations from a re-analysis of the deposited data

Results flagged for a closer look

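Among 102 checks of a named member in a group of 4 to 10 libraries, 9 found 1 library apart from the rest by Dixon's criterion, and chance gives about 1 in 20. In TI, library 6 was apart for Efnb1 (3.04 FPKM), Unc5a (3.43 FPKM) and Unc5d (0.0586 FPKM). This library also had the highest summed sympathoadrenal (1850 FPKM) and cortical (16.7 FPKM) markers of TI and the lowest Efnb3, Nrp1, Nrp2 and Slit2 of the group. TI library 4 was apart for Ephb4 (1.19 FPKM) and Sema3f (3.48 FPKM) and had the highest summed endothelial (94.2 FPKM) and fibroblast (147 FPKM) markers of TI. The part of these markers was not tested. TI library 5 was apart for Dcc (1.61 FPKM) and TI library 1 for Unc5c (0.221 FPKM). AGM library 2 was apart for Nrp2 (0.834 FPKM) and for Sema3a (0.00236 FPKM).

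The change against AG differed between AGM and TIM for Efnb1 and Ntn1, which were called higher in AGM and lower in TIM. The direct difference of TIM vs AGM was -1.54 for Efnb1 and -1.10 for Ntn1 on the log2 scale, with adjusted p of 7.54e-08 and 8.03e-08 in limma. Both AGM calls were lost in rescaled values.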

How the results depend on the processing

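Of 65 calls of the 21 tested members named by the fixed rule, 54 held in every alternative in which they were tested, the fold threshold aside. None changed direction. Calls of members named besides are not in this count, and the numbers of lost calls given next also cover only these 65. With the filter of 1 FPKM in every library, only 4 of these calls were tested. Calls were lost in 63 of 755 fits that left out 1 library, in 6 with rescaled values, in 5 when only the 2 groups set the spread, in 4 each with a pseudocount of 0.1, without a filter and in limma-voom, and in 1 each with weighted libraries and without 4 libraries. These 4 (TI libraries 4 and 6 and TIM libraries 1 and 5, with marker levels apart) were chosen after seeing the data. Without them, 30 members were called in TI, 31 in TIM and 13 in AGM, each vs AG, and for TIM 14 vs TI and 31 vs AGM. In the same order, leaving out 1 library gave 22 to 28, 22 to 28, 5 to 10, 4 to 14 and 25 to 29. With at least 1 FPKM in every library only 2 members were tested, and 1, 1, 0, 1 and 1 were called. With a fold threshold of 1, 11, 11, 4, 0 and 9 were called, beside 21.4%, 21.2%, 9.56%, 2.95% and 24.7% of all genes. In AGM vs AG, 25 were called when only the 2 groups set the spread, 29 with weighted libraries and 6 in limma-voom. In TIM vs TI, 2 were called when only the 2 groups set the spread. The cause of these changes was not tested. Of members below the filter, 17 comparisons passed, and 16 with rescaled values. Of 120 counts over other lists, 10 moved by over 1.5 times. No paired analysis was possible because the columns carry no replicate number that matches the labels, and run as a term could not be fitted for the same reason.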
